A study of Mus musculus with 24 samples.

Results

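The genes described here are 40 mouse genes that repair the DNA lesions made by platinum drugs, or that sense them. They were chosen by name from knowledge of the pathways, with no measured value in the rule, but with earlier results of these data known. They cover nucleotide excision repair, the Fanconi anemia pathway, homologous recombination, translesion synthesis and checkpoint signalling. All 40 were found among the 55416 gene identifiers of the count table, and 39 of them were among the 18005 genes with enough counts to be tested. Fanci was below the count filter. RNA was measured in the kidney inner medulla, the innermost zone of the kidney, made up of the last stretch of the collecting ducts with thin limbs, vessels and interstitial cells. The mice were C57BL/6, a common inbred strain, aged 9 to 10 weeks. Each received 1 intraperitoneal dose, either saline alone or 15 mg/kg cisplatin in saline, and tissue was taken 72 h later. The groups were male saline (6 libraries), male cisplatin (6), female saline (7) and female cisplatin (5), and the study asks how this acute kidney injury changes the RNA of the inner medulla in each sex.

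Cisplatin binds purine bases and forms adducts within a DNA strand and crosslinks between the strands. Nucleotide excision repair finds an adduct through XPC or through a stalled RNA polymerase, unwinds the DNA with the helicases of TFIIH and cuts out the damaged stretch with XPG and the ERCC1-XPF nuclease. Crosslinks between strands engage the Fanconi anemia proteins, whose core complex and E2 enzyme attach ubiquitin to FANCD2 and FANCI. Nucleases, translesion polymerases and homologous recombination then complete the repair, while ATM and ATR signal the damage.

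The promoters of 2 members that fell (Brip1 and Ube2t) and 2 that rose (Fance and Xpa) after cisplatin are shown, so that genes moving in opposite directions can be set side by side. Each line gives the 250 bases before the transcription start, 5′ to 3′ on the gene's strand, from RefSeq (GRCm38.p6). Capitals mark each match to CCAAT or to GGGCGG, the cores of the CCAAT box and the GC box, on either strand, and the matches can share bases.
Brip1, chr11:86201194-86201443, minus strand: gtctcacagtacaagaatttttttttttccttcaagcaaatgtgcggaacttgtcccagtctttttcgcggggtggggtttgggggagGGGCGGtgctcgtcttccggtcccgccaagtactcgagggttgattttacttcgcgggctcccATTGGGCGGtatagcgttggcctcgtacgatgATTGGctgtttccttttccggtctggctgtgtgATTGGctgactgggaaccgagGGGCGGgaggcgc
Ube2t, chr1:134962315-134962564, plus strand: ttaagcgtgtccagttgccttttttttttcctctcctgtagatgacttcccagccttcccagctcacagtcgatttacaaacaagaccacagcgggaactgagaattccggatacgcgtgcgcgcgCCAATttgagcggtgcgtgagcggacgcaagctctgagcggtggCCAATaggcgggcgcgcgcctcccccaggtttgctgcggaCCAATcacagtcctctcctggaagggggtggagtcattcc
Fance, chr17:28313280-28313529, plus strand: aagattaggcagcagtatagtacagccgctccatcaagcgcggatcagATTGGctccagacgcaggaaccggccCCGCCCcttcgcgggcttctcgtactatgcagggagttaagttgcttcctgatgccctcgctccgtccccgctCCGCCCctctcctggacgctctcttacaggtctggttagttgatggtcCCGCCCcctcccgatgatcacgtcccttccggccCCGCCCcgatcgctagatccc
Xpa, chr4:46196312-46196561, minus strand: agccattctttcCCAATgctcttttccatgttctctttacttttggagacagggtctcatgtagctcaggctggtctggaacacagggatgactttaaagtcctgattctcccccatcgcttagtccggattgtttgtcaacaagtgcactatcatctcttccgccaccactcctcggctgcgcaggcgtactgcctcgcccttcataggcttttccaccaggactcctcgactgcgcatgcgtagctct
Both Brip1 and Ube2t, which fell, held 3 matches to CCAAT, and Brip1 also held 3 to GGGCGG. Fance held 1 match to CCAAT and 4 to GGGCGG, and Xpa held 1 to CCAAT. In the GENCODE M21 annotation, 74 bases of the Brip1 window are an exon of the antisense gene Brip1os, and 11 bases of the Fance window are already in its exon. RefSeq promoters were found for 34 members, of which 18 held CCAAT and 19 held GGGCGG, against 33.8% and 32.7% of 32851 promoters. Among the members called in the mean of both sexes, CCAAT lay in 3 of the 4 promoters of those that rose (Chek2, Fance and Xpa) and in 4 of the 6 found for those that fell (Atm, Brca1, Brip1 and Ube2t). GGGCGG lay in 2 of the same 4 (Ercc1 and Fance) and in 4 of the same 6 (Atm, Brip1, Ddb1 and Parp1). A match is a description of the letters and not a binding site.

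Libraries held 18.1 to 27.3 times 1000000 counts. Levels are given as CPM, counts per 1000000 with library sizes scaled by TMM factors. A member is called when the Benjamini-Hochberg adjusted p of edgeR's quasi-likelihood test, over all genes tested, is under 0.05. The principal cell markers summed to 5629 to 11849 CPM and the thin limb markers, which share Slc14a2 with them, to 2461 to 9039 CPM in all libraries. Markers of thick ascending limbs, which lie outside the inner medulla, ranged from 937 to 13922 CPM and those of the proximal tubule from 91.3 to 1104 CPM. Male cisplatin 5, which an earlier analysis of these data found divergent together with female saline 1 and female saline 6, held the lowest level of the 24 libraries for 12 of the 40 members. These include Xpc, Rev1, Rev3l, Atm, Atr and Fan1. Values without these libraries are given beside the calls that changed. In bulk tissue, fewer cells of a type and less RNA per cell cannot be told apart.

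In the mean of the male and female differences, 4 members rose and 10 fell. Xpa, Ercc1, Fance and Chek2 rose by 0.24 to 0.30 on the log2 scale, and Xpc, Ddb1, Ercc3, Ube2t, Fancd2, Brca1, Brip1, Rev3l, Atm and Parp1 fell, by 0.82 at the most in Brip1. The 14 called members are 35.9% of the 39 tested, where 27.1% of all genes were called, 16.2% as higher and 10.9% as lower. The median log2 fold change was -0.07 over the members and 0.01 over all genes tested. In males 3 members rose (Ercc1, Fance and Fancl) and 4 fell (Xpc, Ube2t, Brip1 and Rev3l), 17.9% of the members where 20.7% of all genes were called, 13.2% as higher and 7.54% as lower. In females 0 members were called by edgeR, with 8 at an unadjusted p under 0.05 (14.8% of all genes). There edgeR called 0.272% of all genes, 0.2% as higher and 0.0722% as lower. DESeq2 also called 0 members in females, where it called 152 of 19346 genes as higher and 81 as lower. The mean of both sexes uses the same libraries as the comparisons within each sex and is not independent of them. In the plot of fold changes by repair route, the filled points spread from -0.82 to 0.30. The male values lie farther from 0 than the female ones for 31 of the 39 members (79.5%), against 69.7% of all genes tested.

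**Figure D1:**
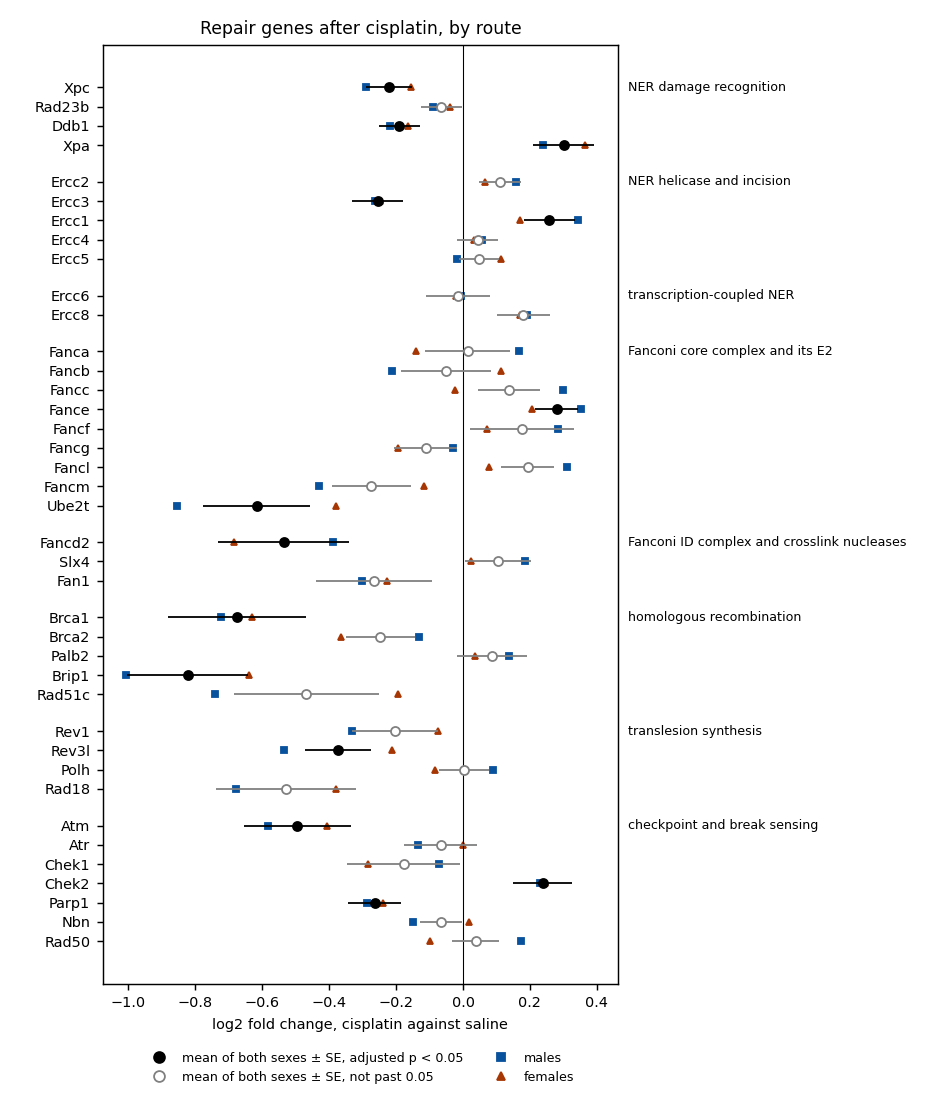
Log2 fold change of cisplatin against saline for the 39 tested members by repair route. Circles with bars are the mean of both sexes ± SE (filled where the adjusted p is under 0.05), squares are males and triangles females. Brip1, Brca1 and Ube2t lie farthest to the left among the filled circles, and 4 filled circles lie to the right of 0.

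Leaving out male cisplatin 6, the male cisplatin library with the least injury marker RNA, raised the count of members lower in males from 4 to 10. Leaving out male cisplatin 4 or male saline 6 raised it to 8 and 7. The share of all genes called lower in males, 7.54% with all libraries, was 12% without male cisplatin 6, 8.66% without male cisplatin 4 and 5.66% without male saline 6. The count of members higher in males was 1 without male saline 4, male saline 6, male cisplatin 2 or male cisplatin 5, where 9.88% to 10.6% of all genes were higher. Without the 3 divergent libraries 1 member was higher and 4 were lower in males (10.6% and 5.9% of all genes), and 4 and 7 in the mean of both sexes (14.7% and 10.3% of all genes). Brip1, Ube2t and Rev3l were called lower in males and in the mean of both sexes under every alternative run, 31 in males and 30 in the mean of both sexes.

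Of the 4 members that recognise adducts in nucleotide excision repair, Xpa rose, Xpc and Ddb1 fell, and Rad23b (log2 fold change -0.06 ± 0.06) was not called. Xpc encodes the sensor of helix distortion that starts repair across the genome. Its level was 93.4 to 101 CPM in male saline (median 99.5) and 65.3 to 107 CPM in male cisplatin (median 78.5). Male cisplatin 6 lay above all male saline libraries and the other 5 below them. Female saline libraries were at 94.9 to 106 CPM (median 99.5) and the female cisplatin libraries at 106, 94.0, 91.0, 74.3 and 79.2 CPM, so that 4 of the 5 lay below the saline libraries. The log2 fold change was -0.29 ± 0.10 in males (adjusted p = 0.0368), -0.15 ± 0.10 in females (adjusted p = 0.465) and -0.22 ± 0.07 in the mean of both sexes (adjusted p = 0.0206). Without the 3 divergent libraries these were not called in males (adjusted p = 0.0901) or in the mean of both sexes (adjusted p = 0.0556). The male call held in 18 of 31 alternatives and was lost without any single one of male saline 1, 2, 4, 5 and 6 and male cisplatin 1, 2, 3 and 5 (adjusted p up to 0.0948), while with male cisplatin 6 left out the male p was 0.00181. The call in the mean of both sexes was also lost without female cisplatin 4 (adjusted p = 0.0525), and held in 26 of 30 alternatives.

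Ddb1, the adaptor that couples damage recognition to a ubiquitin ligase, stood at 491 to 590 CPM in male saline (median 526.1) and 387 to 506 CPM in male cisplatin (median 464). The highest male cisplatin library overlapped the lowest saline library. In females the levels were 475 to 564 CPM under saline (median 523) and 531, 514, 476, 435 and 378 CPM under cisplatin. It fell by 0.19 on the log2 scale in the mean of both sexes (SE 0.06, adjusted p = 0.0235), with -0.22 ± 0.09 in males and -0.16 ± 0.09 in females. This call held in 26 of 30 alternatives, and was lost without female cisplatin 4 (adjusted p = 0.0512) or female cisplatin 5 (adjusted p = 0.0557). Xpa, which verifies the lesion and holds the incision complex, was at 10.2 to 14.1 CPM in male saline (median 11.8) and 11.8 to 16.3 CPM in male cisplatin (median 14). Female saline libraries held 10.1 to 13.4 CPM (median 11.1) and female cisplatin libraries 10.4, 15.3, 14.3, 18.4 and 16.3 CPM, with 4 of the 5 above every saline library. Xpa rose by 0.30 ± 0.09 in the mean of both sexes (adjusted p = 0.0176), with 0.24 ± 0.13 in males and 0.36 ± 0.13 in females. Its call held in 26 of 30 alternatives, and was lost without female cisplatin 4 (adjusted p = 0.0503). An exon of Ncbp1 overlaps Xpa by 77 bases on the opposite strand, and one of Tkfc overlaps Ddb1 by 328 bases. The sources used here do not give the strandedness of the counting.

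Among the helicases and nucleases that open and cut the DNA, Ercc1 rose and Ercc3 fell, while Ercc2 (0.11 ± 0.06), Ercc4 (0.04 ± 0.06) and Ercc5 (0.05 ± 0.06) were not called. Ercc1 (chr7:19344778-19356524) encodes the DNA-binding partner of the XPF nuclease. It was at 22.3 to 26.3 CPM in male saline (median 24.9) and 27.2 to 40.7 CPM in male cisplatin (median 29.1). The groups of males did not overlap, as for 4 of the 39 members (2 higher and 2 lower) and 5.93% of all genes tested (3.45% higher and 2.48% lower). Female levels were 19.9 to 28.1 CPM under saline (median 25.8) and 25, 33.1, 24, 28.8 and 30.6 CPM under cisplatin, with overlap. Its log2 fold change was 0.34 ± 0.11 in males (adjusted p = 0.0251), 0.17 ± 0.11 in females (adjusted p = 0.456) and 0.26 ± 0.08 in the mean of both sexes (adjusted p = 0.0146). The male call held in 23 of 31 alternatives. It was lost without the 3 divergent libraries (adjusted p = 0.0645) and without male cisplatin 5 (0.0761), male saline 4 (0.0573), male saline 6 (0.0534) or male cisplatin 2 (0.0504). It was also lost with no count filter (0.0872), with a tubule marker score in the model (0.0796) and with only the male groups fitted (0.0557). The Ercc1 call in the mean of both sexes was lost with no count filter (adjusted p = 0.0532) and with the tubule marker score (0.0613). Ercc4, which encodes XPF itself, was at 26.2 ± 2.03 CPM in male saline and 27.3 ± 2.07 CPM in male cisplatin (SD, n = 6 each). Exons of Cd3eap overlap Ercc1 by 106 bases on the opposite strand.

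Ercc3, the XPB helicase subunit of TFIIH, was at 46.0 to 75.6 CPM in male saline (median 59.8) and 43.3 to 53.1 CPM in male cisplatin (median 51.8). Male saline 6, the lowest saline library, lay inside the cisplatin range and the other 5 above it. In females it was at 52.4 to 71.4 CPM under saline (median 57.1) and at 48.9, 59.9, 50.9, 43.4 and 42.5 CPM under cisplatin. It fell by 0.26 ± 0.08 on the log2 scale in the mean of both sexes (adjusted p = 0.0152), with -0.26 ± 0.11 in males and -0.25 ± 0.11 in females. This call held in 29 of 30 alternatives and was lost with the tubule marker score in the model (adjusted p = 0.0529). The genes for coupling to stalled transcription were not called. Ercc8, which marks stalled polymerases for ubiquitin, was at 9.77 to 11.4 CPM in male saline (median 10.6) and 10.5 to 12.9 CPM in male cisplatin (median 12.3), with overlap. In females it was at 9.00 to 13.7 CPM under saline (median 11.4) and 12.6, 13.1, 12.1, 10.8 and 14.2 CPM under cisplatin. Its log2 fold change in the mean of both sexes was 0.18 ± 0.08 (adjusted p = 0.0910), and 0.0255 was the adjusted p without the 3 divergent libraries. Ercc6, the partner that remodels chromatin at the stalled polymerase, had -0.01 ± 0.10.

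In the Fanconi core complex and its E2 enzyme, Fance rose and Ube2t fell in the mean of both sexes, and 7 of the 9 members were not called. Fance (chr17:28313519-28326572) encodes the subunit that binds FANCD2 to the core complex. It stood at 27.6 to 33.3 CPM in male saline (median 31.0) and 37.7 to 40.1 CPM in male cisplatin (median 39.3). The 6 male cisplatin libraries lay close together, with an SD of 0.781 CPM, and above every male saline library. Female levels were 24.7 to 36.0 CPM under saline (median 29.3) and 29.9, 30.4, 32.7, 37.9 and 42.4 CPM under cisplatin, with 2 of the 5 above the saline range. The log2 fold change was 0.35 ± 0.09 in males (adjusted p = 0.0108), 0.21 ± 0.09 in females (adjusted p = 0.303) and 0.28 ± 0.07 in the mean of both sexes (adjusted p = 0.00363). The male call held in 30 of 31 alternatives and was lost with no count filter (adjusted p = 0.0542). An exon of CT025652.1 overlaps Fance by 104 bases on the opposite strand.

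Ube2t (chr1:134962565-134974162) encodes the E2 enzyme that passes ubiquitin to FANCD2 and FANCI. Its counts were low, 18 to 36 per library in male saline and 9 to 30 in male cisplatin. The levels were 0.964 to 1.46 CPM in male saline (median 1.24) and 0.477 to 1.09 CPM in male cisplatin (median 0.558), where male cisplatin 6 was highest and overlapped the saline libraries. In females they were 1.14 to 1.78 CPM under saline (median 1.42) and 1.51, 0.977, 1.16, 0.827 and 0.962 CPM under cisplatin, with 3 of the 5 below the saline range. Its log2 fold change was -0.85 ± 0.23 in males (adjusted p = 0.0118), -0.38 ± 0.22 in females (adjusted p = 0.427) and -0.62 ± 0.16 in the mean of both sexes (adjusted p = 0.00693). Of the core subunits, Fancl, the ubiquitin ligase itself, rose in males by 0.31 ± 0.11 (adjusted p = 0.04997; 6.20 to 7.45 CPM under saline, 7.24 to 10.0 under cisplatin) and was not called in the mean of both sexes (0.19 ± 0.08, adjusted p = 0.0690). The Fancl call in males held in 5 of 31 alternatives, with an adjusted p of 0.111 without male cisplatin 5 and 0.11 without the 3 divergent libraries. Its exons overlap Vrk2 by 462 bases on the opposite strand. Fanca, Fancb, Fancc, Fancf, Fancg and Fancm had values from -0.27 (Fancm, the translocase that anchors the complex) to 0.18 (Fancf) and were not called.

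The 4 members for the ubiquitinated pair and its nucleases included Fancd2, which fell, Slx4 (0.10 ± 0.10) and Fan1 (-0.26 ± 0.17), which were not called, and the untested Fanci. Fancd2 was at 0.892 to 3.05 CPM in male saline (median 2.57) and 1.22 to 2.48 CPM in male cisplatin (median 1.76), where the saline range enclosed the cisplatin range. Females held 1.68 to 4.06 CPM under saline (median 2.05) and 1.04, 1.60, 1.21, 2.29 and 1.38 CPM under cisplatin, with 4 of the 5 below the saline range. The log2 fold change was -0.54 ± 0.20 in the mean of both sexes (adjusted p = 0.0442), -0.39 ± 0.27 in males and -0.68 ± 0.28 in females, and the call held in 14 of 30 alternatives, with an adjusted p of 0.0828 without the 3 divergent libraries and 0.0794 without female saline 1. An exon of Fancd2os overlaps Fancd2 by 257 bases on the opposite strand. Fanci, the partner of Fancd2, had 6 to 9 counts per library in male saline and 3 to 8 in male cisplatin, or 0.300 ± 0.0385 and 0.232 ± 0.0501 CPM (SD, n = 6 each), with a two-sided exact permutation p of 0.0325. In females it had 4 to 19 counts under saline and 0 to 8 under cisplatin, or 0.448 ± 0.198 (n = 7) and 0.190 ± 0.175 CPM (n = 5), with a two-sided exact permutation p of 0.0455. These 2 p-values are not adjusted for the other members. Exons of Polg overlap Fanci by 921 bases on the opposite strand.

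In homologous recombination, Brip1 and Brca1 fell, and Brca2 (-0.25 ± 0.10), Rad51c (-0.47 ± 0.22) and Palb2 (0.09 ± 0.11) were not called. Brip1 (chr11:86058138-86201193), also known as FANCJ, encodes a helicase that binds BRCA1, and had the lowest fold change of the members. Male saline libraries held 1.37 to 2.38 CPM (median 1.5; 29 to 57 counts) and male cisplatin libraries 0.620 to 0.985 CPM (median 0.894; 13 to 27 counts). The groups of males did not overlap. In females the levels were 1.15 to 2.69 CPM under saline (median 1.64) and 1.86, 1.11, 1.06, 0.827 and 1.13 CPM under cisplatin, where 4 of the 5 lay below every saline library. The log2 fold change was -1.01 ± 0.25 in males (adjusted p = 0.0095), -0.64 ± 0.25 in females (adjusted p = 0.263) and -0.82 ± 0.18 in the mean of both sexes (adjusted p = 0.00242), a fold of 0.565.

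Brca1 (chr11:101488764-101551955), which directs broken ends to recombination, was at 0.892 to 2.18 CPM in male saline (median 1.87) and 0.442 to 1.48 CPM in male cisplatin (median 1.13). The ranges overlapped, and male saline 6 was the lowest saline library. Female libraries held 0.668 to 2.19 CPM under saline (median 1.31) and 1.17, 0.799, 0.950, 0.584 and 0.794 CPM under cisplatin. It fell by 0.68 ± 0.21 on the log2 scale in the mean of both sexes (adjusted p = 0.0184), with -0.72 ± 0.28 in males (adjusted p = 0.0712) and -0.63 ± 0.30 in females (adjusted p = 0.325), and was called under all 30 alternatives in the mean of both sexes. Without male saline 6 or male cisplatin 4 the male difference passed as well (adjusted p = 0.0409 and 0.0412). In the plot of levels by library, Brip1 and Fance show male groups with a gap between them, while the Xpc and Atm panels show wide cisplatin groups.

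**Figure D2:**
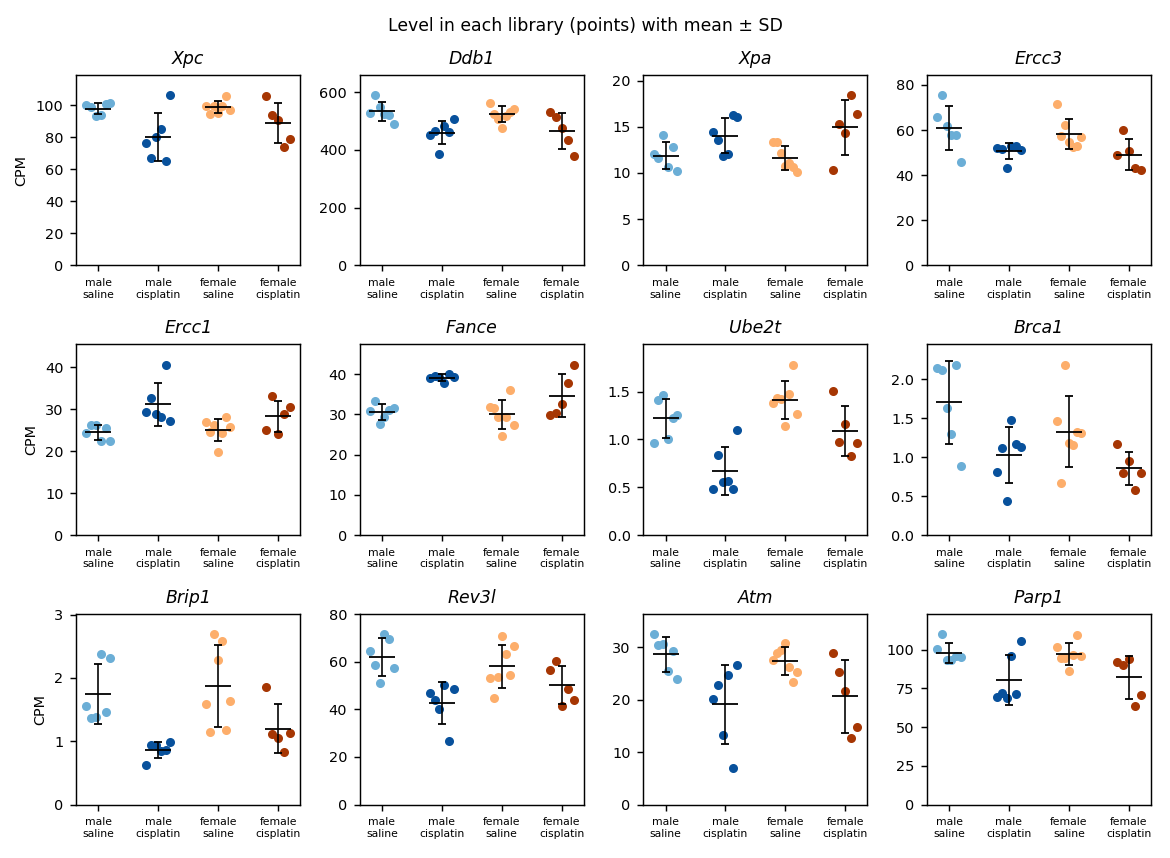
Level in CPM (y axis, from 0) of the 12 members with the smallest adjusted p in each of the 24 libraries, by group (x axis). Points are libraries, and the bars are the mean ± SD. Male cisplatin libraries lie above all male saline libraries for Ercc1 and Fance and below them for Brip1 and Rev3l.

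Of the translesion genes Rev3l fell, and Rev1 (-0.20 ± 0.13), Polh (0.00 ± 0.08) and Rad18 (-0.53 ± 0.21, adjusted p = 0.0612) were not called. Rev3l (chr10:39732118-39875211) encodes the catalytic subunit of DNA polymerase zeta, which extends DNA past bulky lesions. It was at 50.9 to 71.6 CPM in male saline (median 61.4) and 26.6 to 50.4 CPM in male cisplatin (median 45.4). The male groups did not overlap, and 26.6 CPM in male cisplatin 5 was the lowest value. Female levels were 44.9 to 70.8 CPM under saline (median 54.3) and 56.4, 60.4, 41.3, 48.7 and 43.9 CPM under cisplatin, with overlap. On the log2 scale the fold change was -0.54 ± 0.14 in males (adjusted p = 0.0102), -0.21 ± 0.14 in females (adjusted p = 0.484) and -0.37 ± 0.10 in the mean of both sexes (adjusted p = 0.00779). Rad18, the ligase that recruits translesion polymerases, was at 2.78 to 9.54 CPM in male saline (median 8.22) and 2.88 to 7.63 CPM in male cisplatin (median 3.99). Females held 4.06 to 9.65 CPM under saline (median 7.56) and 4.06, 7.77, 3.06, 5.64 and 6.06 CPM under cisplatin. Rad18 passed in 5 of 30 alternatives in the mean of both sexes, with an adjusted p of 0.0421 in DESeq2, 0.0226 without male saline 6, 0.0182 without male cisplatin 6, 0.0411 without female saline 2 and 0.0345 without female cisplatin 2. Polh, the polymerase that copies past platinum adducts, was at 11.1 ± 1.35 CPM in male saline and 11.8 ± 0.841 CPM in male cisplatin (SD, n = 6 each).

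Among 7 checkpoint and break-sensing members, Chek2 rose and Atm and Parp1 fell in the mean of both sexes, with 0 called by edgeR in males or in females alone (2 and 1 at an unadjusted p under 0.05, as were 36.0% and 14.8% of all genes). Atm (chr9:53439149-53536740), the kinase of the double-strand break response, was at 23.9 to 32.5 CPM in male saline (median 29.8) and 7.05 to 26.6 CPM in male cisplatin (median 21.5). The ranges overlapped, and male cisplatin 5 was lowest. The female range was 23.4 to 30.8 CPM under saline (median 27.6) and 28.9, 25.2, 21.7, 12.6 and 14.7 CPM under cisplatin, with 3 of the 5 below the saline range. Its log2 fold change was -0.50 ± 0.16 (adjusted p = 0.0253), with -0.58 ± 0.22 in males and -0.41 ± 0.23 in females. The call held in 27 of 30 alternatives, and was lost without female cisplatin 4 (adjusted p = 0.0594) or female cisplatin 5 (adjusted p = 0.0563).

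Parp1 (chr1:180568924-180601254), the nick sensor that builds poly(ADP-ribose) chains, was at 93.1 to 110 CPM in male saline (median 95.8) and 68.5 to 106 CPM in male cisplatin (median 71.7). The 6 male cisplatin libraries split into 4 between 68.5 and 72.1 CPM and the libraries 4 and 6 at 95.7 and 106 CPM. In females it was at 85.9 to 109 CPM under saline (median 95.9) and 92.1, 90.4, 93.9, 63.4 and 71.0 CPM under cisplatin, again with a gap. It fell by 0.26 ± 0.08 on the log2 scale (adjusted p = 0.0172), with -0.29 ± 0.11 in males and -0.24 ± 0.11 in females. This call held in 28 of 30 alternatives, and was lost without the 3 divergent libraries (adjusted p = 0.0566). Chek2, the kinase activated by ATM, was at 7.77 to 9.30 CPM in male saline (median 9.00) and 7.89 to 11.5 CPM in male cisplatin (median 10.6). Females held 7.48 to 10.5 CPM under saline (median 8.43) and 8.57 to 12.6 CPM under cisplatin. It rose by 0.24 ± 0.09 (adjusted p = 0.0461), a call that held in 9 of 30 alternatives, with an adjusted p of 0.0973 without female cisplatin 5, 0.0573 without the 3 divergent libraries and 0.18 with no count filter. Atr (-0.07 ± 0.11), Chek1 (-0.18 ± 0.17), Nbn (-0.07 ± 0.06) and Rad50 (0.04 ± 0.07) were not called.

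Levels between genes were compared per kb of exon. In male saline Ddb1 was highest at 83.2 ± 5.17 CPM per kb (SD, n = 6), above Rad23b at 27.3 ± 0.869, and these 2 kept ranks 1 and 2 in all 4 groups. Ercc3 (21.5 ± 3.45), Parp1 (18.5 ± 1.21) and Xpc (17.8 ± 0.642 CPM per kb) followed, with overlapping SDs. The lowest were Fancd2 (0.296), Ube2t (0.253), Brip1 (0.234), Brca1 (0.200) and Fanci (0.0519), and Ddb1 was 1602-fold above Fanci. The 4 called members with the lowest fold changes, Brip1, Brca1, Ube2t and Fancd2, are thus among the 5 of lowest level, and their counts limit the precision of those fold changes. Of the 40 members 30 were above 1 CPM per kb in male saline.

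**Figure D3:**
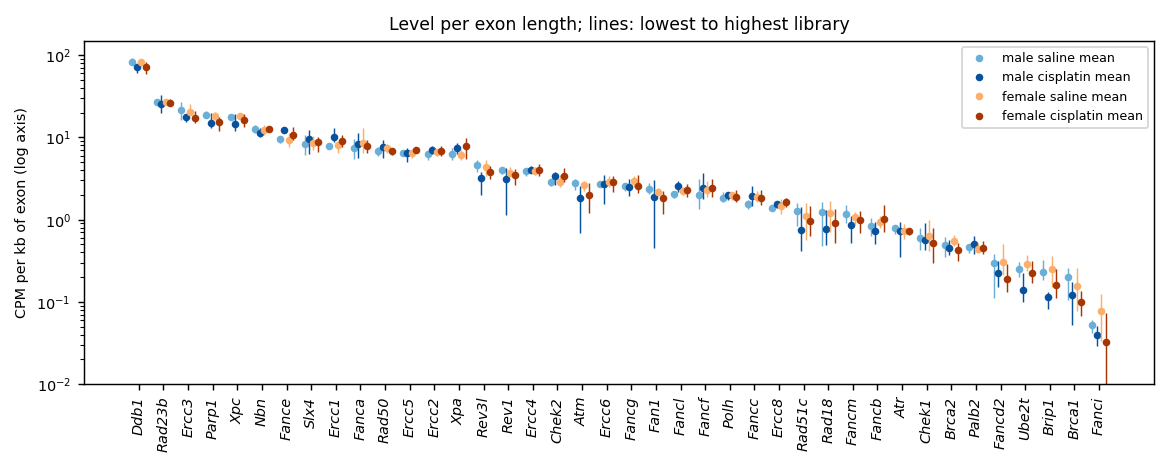
Level of the 40 members per kb of exon (y axis, log scale) in the 4 groups, ordered by male saline. Points are group means and lines run from the lowest to the highest library. Ddb1 lies at 83.2 CPM per kb in male saline, and Fanci, at the right, at 0.0519.

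The difference between the sexes in the response to cisplatin was tested itself, and 0 members and 0 genes of all tested passed in edgeR (0.0% of all genes) or DESeq2, with 0 members and 772 genes at an unadjusted p under 0.05 in edgeR. The interaction, female minus male, ranged from -0.32 (Fancc) to 0.55 (Rad51c) over the members. In edgeR 0 members differed between the sexes under saline (0 at an unadjusted p under 0.05, against 3.22% of all genes), where 0.189% of all genes did (0.0611% higher and 0.128% lower in females). Under cisplatin 0 members differed in edgeR (2 at an unadjusted p under 0.05, against 9.72% of all genes), where 0.156% of all genes did (0.106% higher and 0.05% lower in females). DESeq2 also gave 0 members in both comparisons. It called 18 genes higher and 36 lower in females under saline (of 22503), and 92 and 29 under cisplatin (of 21715). The largest female-minus-male difference under cisplatin was in Ube2t (0.69 ± 0.24, adjusted p = 0.361). Males and females share no libraries, and the fold change had the same sign in both sexes for 31 of 39 members (79.5%), against 76.9% of all genes tested. It had the same sign for all 7 members called in males, as for 96.5% of the 3731 genes called in males. In females 0 of the 39 members had groups that did not overlap, against 0.85% of all genes tested (0.511% higher and 0.339% lower).

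The called members were compared by genomic span, the distance from the start to the end of the gene, which the choice of members did not use. All tested genes were split into 4 equal parts by span. In the longest, above 47.4 kb, lay 15 members, of which 0 rose and 5 fell (Fancd2, Brca1, Brip1, Rev3l and Atm), where 8.0% of all genes of that length rose and 22.6% fell. The median log2 fold change in this part was -0.25 over the members and -0.11 over all genes. Between 18.5 and 47.4 kb lay 17 members, of which 2 rose and 4 fell, where 14.4% of all genes rose and 11.1% fell, with medians of -0.06 and -0.01. Between 6.32 and 18.5 kb lay 6 members, of which 2 rose and 1 fell, where 20.3% of all genes rose and 6.47% fell, with medians of 0.03 and 0.07. Below 6.32 kb, where 22.0% of all genes rose and 3.72% fell, the single member Fancf was not called. Across genes, Spearman's rho of span and log2 fold change was -0.273 over 39 members and -0.280 over 17940 genes, a description over genes that share libraries and are not independent. Ube2t spans 11.6 kb and had a log2 fold change of -0.62.

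**Figure D4:**
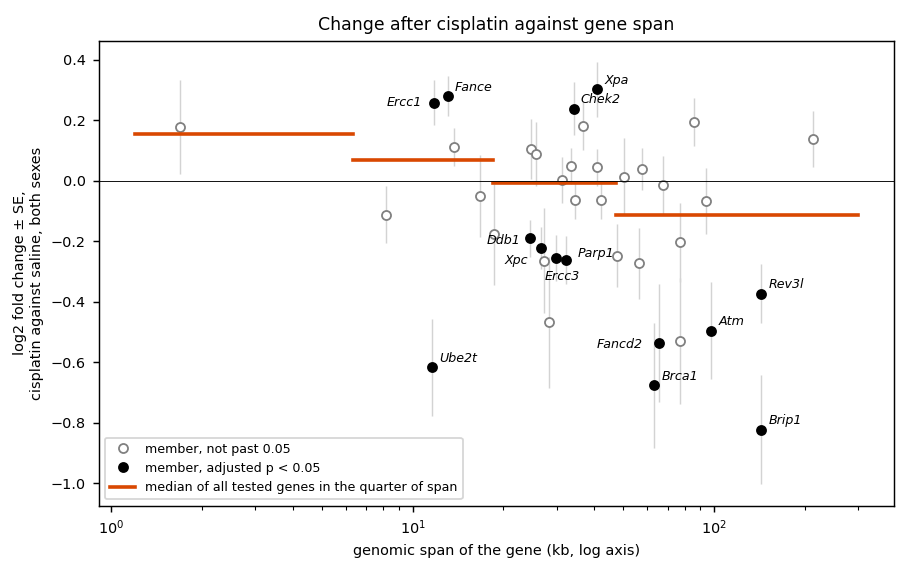
Log2 fold change in the mean of both sexes ± SE (y axis) against the genomic span of each of the 39 tested members (x axis, log scale). Filled points have an adjusted p under 0.05, and orange lines are the median of all tested genes in each of 4 parts by span. Filled points above 47.4 kb lie below 0 and below the orange line.

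Of 87 other genes of the same pathways, from a list made with earlier results of these data known, 12 rose and 4 fell in the mean of both sexes (18.4%, against 27.1% of all genes). In males 11 rose and 2 fell, where 20.7% of all genes were called, 13.2% as higher and 7.54% as lower. In females 0 passed, with 8 at an unadjusted p under 0.05, as were 2664 of the 18005 genes tested. Of its 18 genes of homologous recombination 3 rose, among them Swsap1 (0.40 ± 0.08, adjusted p = 0.00175) and Xrcc3 (0.52 ± 0.11, adjusted p = 0.00272), 1 fell and 14 were not called. Polq, the polymerase of microhomology end joining, fell by 0.93 ± 0.20 (adjusted p = 0.00186). Slx1b, the nuclease partner of SLX4, rose by 0.43 ± 0.10 and Faap20, a Fanconi core subunit, by 0.38 ± 0.09. Pold1, the catalytic subunit of DNA polymerase delta, rose by 0.32 ± 0.08, and Rpa1, the large subunit of the single-strand binding protein, fell by 0.27 ± 0.07. Hmgb2, a chromatin protein that binds bent platinum adducts, rose by 0.71 ± 0.18. By route, 2 rose and 2 fell of 23 excision repair genes, 3 and 0 of 13 Fanconi genes, 3 and 1 of 18 recombination genes, 1 and 1 of 9 translesion genes, 1 and 0 of 15 checkpoint genes, and 2 and 0 of 9 mismatch repair and adduct-binding genes. Ddb2, the partner of Ddb1 in recognition, was not called (0.22 ± 0.10, adjusted p = 0.114).

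Other marker RNAs moved along with these differences, and their part in the results was not tested. Of 9 tested markers of tubular injury 8 rose and 0 fell in the mean of both sexes. They summed to 2300 to 2707 CPM in male saline, 3106 to 25641 in male cisplatin, 2404 to 2899 in female saline and 3085 to 15025 in female cisplatin. The 5 erythroid markers all fell, and summed to 149 to 380 CPM in male saline, 4.67 to 15.3 in male cisplatin, 97.5 to 391 in female saline and 5.9 to 13.9 in female cisplatin, with no overlap in either sex. Of 9 tested markers of macrophages and monocytes 2 rose and 2 fell, and the sums were 64.8 to 119, 90.5 to 229, 54.5 to 140 and 84.9 to 220 CPM in the same order. Of 6 thin limb markers 1 fell, and they summed to 5702 to 7128, 2913 to 6765, 6302 to 9039 and 2461 to 7925 CPM. Of 12 targets of p53, 7 rose, with Cdkn1a at 1.10 ± 0.21, and summed to 616 to 674, 718 to 1199, 640 to 847 and 593 to 1130 CPM in the same order. Endothelial markers fell for 4 of 7, and summed to 1989 to 2387, 700 to 2401, 1682 to 2644 and 1425 to 2176 CPM. Fibroblast markers fell for 4 of 7, and summed to 519 to 637, 105 to 457, 284 to 692 and 242 to 565 CPM. Thick ascending limb markers summed to 2588 to 13922, 1634 to 8158, 937 to 12066 and 3757 to 9383 CPM in the same order. The medians of these sums were 9276, 4601, 7338 and 5641 CPM. Median sums were 451, 276, 382 and 171 CPM for the proximal tubule and 453, 251, 381 and 300 CPM for intercalated cells. For principal cells they were 9056, 9957, 8446 and 7788 CPM, and all 4 lists had overlapping ranges in both sexes. For Brip1, Brca1, Ube2t and Fancd2, which are known to be more abundant in dividing cells, the proliferation markers were examined. Of 17 tested 1 rose (Tk1) and 2 fell (Cdk1 and Mcm3), and 0 of the 19 markers was at 0 throughout a group. Their sums were 158 to 194, 155 to 197, 171 to 234 and 165 to 197 CPM in the same order of groups. The median sums were 186, 172, 189 and 174 CPM, lower under cisplatin in both sexes with overlapping ranges. A score of the tubule markers above (proximal tubule, thick ascending limb) was then added to the model. In the mean of both sexes, 1 member (Fance) was called higher and 5 lower (Ube2t, Fancd2, Brca1, Brip1 and Rev3l). Of the 18005 genes tested, 1844 were called higher and 1289 lower with the score, against 2911 and 1970 without it. Xpa, Ercc1, Chek2, Xpc, Ddb1, Ercc3, Atm and Parp1 were not called with the score (edgeR adjusted p of 0.0529 to 0.0724).

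Levels of the 15 members named by rule were set against the summed injury markers over the 11 cisplatin libraries, both on log2 scales, with p-values by permutation and adjustment over the 15 relations. Xpc was lower in libraries with more injury marker RNA, with Pearson's r = -0.842 (permutation p = 0.0017, adjusted p = 0.0128) and Spearman's rho = -0.80 (permutation p = 0.00484, adjusted p = 0.0726). Without female cisplatin 2 and male cisplatin 6, the libraries farthest from the median, r was -0.776. Within the 6 male libraries r was -0.854 (two-sided exact permutation p = 0.0528), and the 5 female libraries are too few for a value. Parp1, the other of the 15 with an adjusted Pearson p under 0.05, had r = -0.865 (permutation p = 0.00144, adjusted p = 0.0128). Its Spearman's rho was -0.718 (permutation p = 0.0168, adjusted p = 0.107). Without female cisplatin 2 and male cisplatin 6 its r was -0.822, and within the 6 male libraries -0.869 (two-sided exact permutation p = 0.0528). The 11 libraries fell into separate Parp1 clusters, so r cannot tell a graded relation from a split of the libraries. The 5 libraries with Parp1 between 90.4 and 106 CPM had injury sums of 3085 to 6753 CPM, and the 6 with Parp1 between 63.4 and 72.1 CPM had sums of 10857 to 25641 CPM. In the same 6 libraries Xpc was at 65.3 to 80.5 CPM, and in the other 5 at 85.3 to 107 CPM. For the other 13 members the adjusted Pearson p was 0.218 or higher, among them Fance (r = 0.611), which in males lay at 37.7 to 40.1 CPM over injury sums from 3106 to 25641 CPM.

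**Figure D5:**
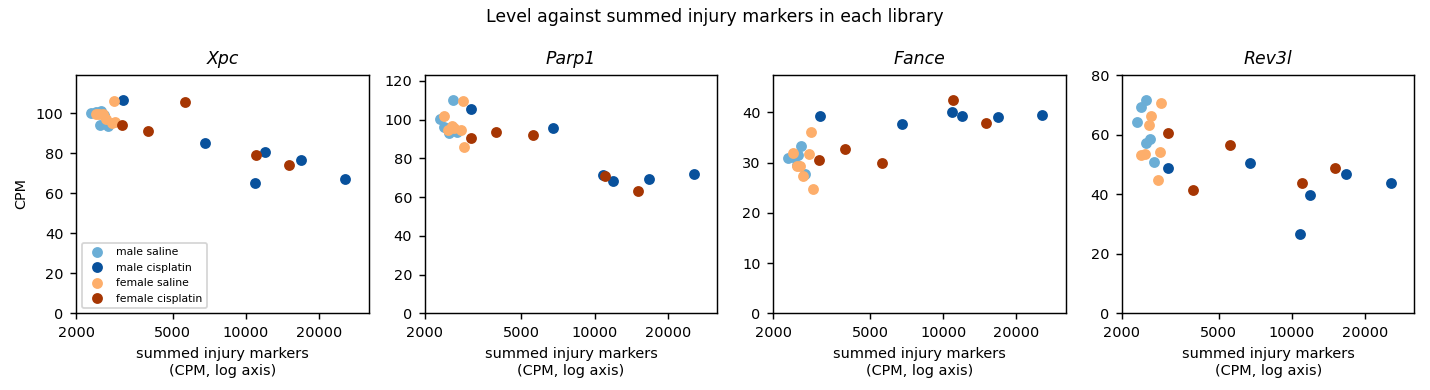
Level of Xpc, Parp1, Fance and Rev3l in CPM (y axes, from 0) against the summed CPM of 10 tubular injury markers (x axes, log scale) in the 24 libraries, coloured by group. Xpc and Parp1 are lower in cisplatin libraries with high sums, and Fance in male cisplatin stays between 37.7 and 40.1 CPM.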

How the data were processed

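Poly(A)-selected RNA of the inner medulla was sequenced in 24 libraries. The authors deposited raw counts per Ensembl gene identifier. The mouse build mm10, DESeq2 1.28.1, Subread 2.0.1, featureCounts and Trim Galore 0.6.7 are named in the submitters' processing notes, without roles. Strandedness, aligner and annotation release were not given in the sources used here. Where nothing says that each library came from a separate mouse, p-values measure the spread between libraries.

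Groups came from the labels. In R 4.3.3, edgeR 4.0.16 kept genes by filterByExpr (minimum count 10), scaled libraries by TMM and fitted all 24 libraries together in its quasi-likelihood model, with 1 mean for each of the 4 groups. Benjamini-Hochberg adjustment ran over the 18005 genes tested, with 0.05 as the threshold, and the script was tested on simulated data. The members, the lists and the rule for named genes were chosen with earlier results of these data known. Values by library are given for the 12 members with the smallest adjusted p and for the member of each route with the largest difference, and the 8 other pathway genes with the smallest adjusted p are named. Replicate numbers were not used to pair libraries in the main fit. Centred log2 CPM of libraries with the same number correlated over 0.1 in 6 of 33 pairs of libraries (median -0.012, range -0.297 to 0.280). Pairs with different numbers were not examined, so these values cannot show that pairing is absent. All 40 members and 87 of 88 listed other pathway symbols were found. Exon lengths, spans and positions are from GENCODE M21 and promoters from RefSeq, both on GRCm38. Alternatives were DESeq2 size factors, DESeq2 1.42.0, no count filter, fewer groups in the fit, the replicate number as a block, a tubule marker score as covariate, and left-out libraries.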

Additional observations from a re-analysis of the deposited data

Results flagged for a closer look

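Among 60 groups of 5 to 7 libraries examined, 2 held a library far from the others by Dixon's criterion, and chance flags about 1 in 20 groups. Ercc3 was at 43.3 CPM in male cisplatin 3, where the nearest male cisplatin library was at 51.3 CPM. Xpc was at 106 CPM in female saline 6, where the nearest female saline library was at 99.7 CPM.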

How the results depend on the processing

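For the 39 tested members, 0 of 673 values called in either fit had the opposite sign under an alternative. Among values called in neither, 236 had. Of the values of named members, ranks per length included, 302 kept their side of the threshold or their rank, 36 lost and 4 gained a call under alternatives other than leaving out 1 library, where the numbers were 1139, 69 and 16. With no count filter, 0 members were higher in males and 1 in the mean of both sexes, and 85 genes of all changed in females. Of the 41464 genes then tested, 1838 were higher in males and 2368 in the mean of both sexes. With only the groups compared in the fit, 1 member was higher in males (1491 of 16587 genes), and 2402 genes changed in males and 20 in females. Without the 3 divergent libraries 1 member was higher in males (1887 of 17768 genes) and 32 genes changed in females. When the tubule score entered the model, 1 member was higher and 5 were lower in the mean of both sexes, and 2145 genes changed in males, 25 in females, 3133 in the mean of both sexes, and 59 between the sexes under saline and 59 under cisplatin. DESeq2 gave 233 genes in females, 54 between the sexes under saline and 121 under cisplatin. With the replicate block 2 members were higher in the mean of both sexes, where 2140 of 18005 genes were. The calls of Xpa and Chek2 did not pass (adjusted p = 0.0583 and 0.106), 16 genes changed in females, and the other counts stayed within 1.5 times. The cause was not tested.

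Leaving out 1 library at a time gave 1 to 3 members higher and 3 to 10 lower in males, 3 to 4 higher and 7 to 12 lower in the mean of both sexes, and 0 in females, in the interaction and between the sexes. Of all genes, 2554 to 5268 changed in males, 21 to 139 in females, 3336 to 6025 in the mean of both sexes, 21 to 41 between the sexes under saline, 12 to 120 under cisplatin, and 0 in the interaction. Members under 1 CPM per kb, with counts down to 8 in Brca1 and 0 in Fanci, are limited by depth.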

Other observations

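Some members differed most in 1 sex without passing the adjustment. Fancc, a subunit of the Fanconi core complex, had a log2 fold change of 0.30 ± 0.13 in males (adjusted p = 0.0993) and -0.02 in females. Brca2, a mediator of homologous recombination, had -0.36 ± 0.15 in females (adjusted p = 0.265) and -0.13 in males. Rad51c, another recombination gene, had -0.74 ± 0.30 in males (adjusted p = 0.0823) and -0.19 in females. The interaction of sex and cisplatin did not pass for any of these (edgeR's adjusted p of 0.943 for Fancc).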
